A study of Arabidopsis thaliana with 24 samples.

Results

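The arabinogalactan and fasciclin-like protein genes of Arabidopsis thaliana were examined as 1 group of cell wall genes in root libraries. The 35 genes were chosen by name, with earlier results of these data known. They were the fasciclin-like genes FLA1 to FLA21 and 14 arabinogalactan protein genes (AGP1 to AGP5, AGP9, AGP10, AGP12, AGP14, AGP17 to AGP19, AGP30 and AGP31). All 35 were present among the 34218 features of the count table. The plants were F1 seedlings from crosses of a UAS::abi1-1 line with the enhancer trap lines J0571, J1721 or Q0990, or with C24, so every group, the C24 controls included, carried the UAS::abi1-1 transgene. The abi1-1 allele encodes a dominant form of a protein phosphatase that blocks signalling by abscisic acid (ABA), and it is made only in cells where an enhancer trap supplies the activator. The labels name no cells for any trap line, and they describe no driver in the C24 cross. Each cross was kept for 8 h on plates with 1 µM ABA or on mock plates, at an age of 5 days, and the labels describe root segments of 1 cm from pools of 50 to 100 seedlings. The 8 groups were J0571 ABA, J0571 mock, J1721 ABA, J1721 mock, Q0990 ABA, Q0990 mock, C24 ABA and C24 mock, with 3 libraries each. Nothing in the labels says that the pools came from separate sowings, so p-values measure the spread between these libraries, which may be technical. Whole root segments were sequenced, so fewer cells of a type and less RNA per cell cannot be told apart in any difference given here.

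Arabinogalactan proteins are secreted proteins whose backbone is rich in proline, alanine, serine and threonine. Their prolines are hydroxylated and carry large arabinose and galactose side chains, and many are tethered to the plasma membrane by a glycolipid (GPI) anchor. Fasciclin-like proteins combine such glycosylated stretches with fasciclin domains, which are known from cell adhesion proteins. In roots these proteins are known for roles in cell expansion, root hair growth, secondary wall formation and salt tolerance, and FLA4, named SOS5 in the reference annotation, is required for normal root growth under salt.

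The total ran from 38542817 to 61555387 counts per library, and the 35 genes took between 0.311 and 0.437% of it. ABA and mock libraries were parted by the first principal component, which held 53.1% of the variance. Mock libraries numbered 1 stood apart from their replicates on the second component, which held 5.57%. They did so in opposite directions, with C24 and Q0990 at 40.4 and 27.4 and J0571 and J1721 at -30.5 and -15.9. The level of ABI1, which the transgene could add to, was 269 to 412 CPM (counts scaled to the normalized library size) in the ABA libraries of the driver crosses against 282 to 380 CPM in those of C24. In mock libraries it was 102 to 117 CPM in the driver crosses and 93.7 to 105 CPM in C24. The J0571 mock libraries (112 to 117 CPM) lay above those of C24, and the other ranges overlapped. Genes that mark shoot tissue were low, with group means of RBCS1A, a Rubisco small subunit gene, between 4.26 and 14.1 CPM. LHCB2.2 and RBCS3B, which also mark green tissue, were at most 0.0849 and 0.0913 CPM as group means.

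The reference sequences show how the 14 AGP and 21 FLA genes differ. Proline, alanine, serine and threonine made up a median of 60.7% of the residues of the AGP proteins (34.3 to 72.6%), against 33.9% (25.8 to 43.1%) in the FLA proteins. The AGP proteins were 60 to 359 residues long and the FLA proteins 246 to 489. AGP12 and AGP14, with 60 residues each, are arabinogalactan peptides, the shortest form of the family. AGP30 had the lowest share of those 4 residues among the AGP proteins. It and AGP31 belong to the non-classical members, which lack a GPI anchor and carry a further domain.

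Upstream sequences were read from RefSeq's TAIR10.1 assembly, which is of the accession Columbia, whereas the plants were crosses to C24 type lines, so the plants' own bases may differ. Each window is the 300 bases before the annotated start of the gene, 5' to 3' on the gene's strand. The motif searched was ACGTG, the core of the ABA-responsive element, on both strands, so it can also read CACGT on the strand shown; CACGTG, the G-box, holds both and counts within it. At least 1 ACGTG was found in 5 of the 35 windows (14.3%), those of AGP2, AGP10, AGP14, AGP19 and FLA15, against 25.6% of all 27443 windows of the same length. CACGTG was in 1 of the 35, against 7.09% of all windows. Of the 5 genes called higher with ABA in every cross, AGP2 and AGP14 held the motif and AGP1, AGP12 and AGP30 did not. FLA15, which held it, was called lower in every cross. Shown are the windows of AGP2 and AGP14, and of AGP30, which had the largest rise in J0571. Those of FLA6 and FLA13, whose ABA response differed between J0571 and C24, are also shown. Capitals mark ACGTG on either strand. None of these windows overlapped another annotated gene. They lie at chr2:9538964-9539263 on the minus strand (AGP2), chr5:22892851-22893150 on the plus strand (AGP14), chr2:14295354-14295653 on the minus strand (AGP30), chr2:8840257-8840556 on the plus strand (FLA6) and chr5:17760565-17760864 on the plus strand (FLA13).
AGP2: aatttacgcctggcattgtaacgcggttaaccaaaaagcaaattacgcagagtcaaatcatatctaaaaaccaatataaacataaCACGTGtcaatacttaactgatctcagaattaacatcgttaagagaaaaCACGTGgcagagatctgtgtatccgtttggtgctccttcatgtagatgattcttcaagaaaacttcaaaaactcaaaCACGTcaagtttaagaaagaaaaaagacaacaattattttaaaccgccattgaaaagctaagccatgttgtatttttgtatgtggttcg
AGP14: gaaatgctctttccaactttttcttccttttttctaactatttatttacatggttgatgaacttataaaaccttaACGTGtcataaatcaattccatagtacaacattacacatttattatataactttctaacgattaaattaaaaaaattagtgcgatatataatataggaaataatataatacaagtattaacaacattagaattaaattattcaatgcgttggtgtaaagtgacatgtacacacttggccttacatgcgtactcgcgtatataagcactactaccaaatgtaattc
AGP30: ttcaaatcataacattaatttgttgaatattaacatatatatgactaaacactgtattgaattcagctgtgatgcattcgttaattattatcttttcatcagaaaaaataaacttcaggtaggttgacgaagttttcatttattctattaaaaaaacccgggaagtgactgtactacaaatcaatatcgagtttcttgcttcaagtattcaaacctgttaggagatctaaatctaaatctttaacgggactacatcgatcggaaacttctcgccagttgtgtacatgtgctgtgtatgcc
FLA6: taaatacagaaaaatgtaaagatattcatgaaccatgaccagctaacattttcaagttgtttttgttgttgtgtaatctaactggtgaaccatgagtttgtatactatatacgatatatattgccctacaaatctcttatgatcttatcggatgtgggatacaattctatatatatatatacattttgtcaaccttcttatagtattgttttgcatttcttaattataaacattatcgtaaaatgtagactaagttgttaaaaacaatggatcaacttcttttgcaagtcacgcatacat
FLA13: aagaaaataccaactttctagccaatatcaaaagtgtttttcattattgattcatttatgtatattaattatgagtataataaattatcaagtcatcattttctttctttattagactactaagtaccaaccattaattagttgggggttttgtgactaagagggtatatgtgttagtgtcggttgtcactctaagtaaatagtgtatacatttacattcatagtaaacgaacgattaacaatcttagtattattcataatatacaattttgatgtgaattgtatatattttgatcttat
The AGP2 window held 3 places, 2 of them CACGTG, which began 215, 166 and 89 bases before the gene. The AGP14 window held 1 place, 225 bases before the gene. The windows of AGP30, FLA6 and FLA13 held none, and these 3 genes also changed with ABA in C24. A match describes these letters only, and no factor's binding was measured.

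Levels were set between genes per kilobase of coding length, as CPM per kb. Coding length leaves out the untranslated parts of exons, so the order of genes depends on this divisor. It was shortest, at 0.183 kb, for AGP12 and AGP14, whose values per kb are the most affected. Undivided, AGP12 had 134 to 148 CPM in C24 mock libraries, below AGP9 (407 to 425 CPM) and AGP31 (414 to 472 CPM). In C24 mock libraries the arabinogalactan peptide gene AGP12 (AT3G13520) was highest at 766 ± 38.9 CPM per kb (SD, n = 3), followed by AGP9 (AT2G14890), a classical arabinogalactan protein, at 726 ± 16.7 CPM per kb. The gap between AGP12 and AGP9 was smaller than their summed SDs. AGP2 (AT2G22470) followed at 644 ± 38.9 CPM per kb and AGP14 (AT5G56540) at 594 ± 13 CPM per kb, again closer together than their summed SDs. AGP31 (AT1G28290), a vascular arabinogalactan protein, at 412 ± 27 CPM per kb and FLA9 (AT1G03870), the highest FLA gene, at 395 ± 9.15 CPM per kb could not be told apart by the same measure. Below these, FLA7, FLA2, AGP3, FLA8, AGP1 and FLA17 lay between 272 and 100.4 CPM per kb, and FLA15, FLA18, AGP30, AGP18, FLA1 and FLA13 between 85.2 and 51.5 CPM per kb. FLA11, SOS5, FLA10, AGP4, FLA12 and FLA16 lay between 34.8 and 6.94 CPM per kb. FLA6, AGP5, AGP19, AT1G15190 (the locus of FLA19, which the reference leaves unnamed), AGP17 and AGP10 lay between 4.06 and 0.962 CPM per kb. In C24 ABA libraries the first 3 places went to AGP12 (1512 ± 155 CPM per kb), AGP14 (1406 ± 81.9 CPM per kb) and AGP2 (1329 ± 133 CPM per kb). Each pair of them was closer together than its summed SDs. AGP30 stood at place 7 with 332 ± 6.86 CPM per kb. By the same measure it could not be told apart from AGP3 (335 ± 20.5), FLA7 (332 ± 21.4) or AGP31 (302 ± 29.0).

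**Figure D1:**
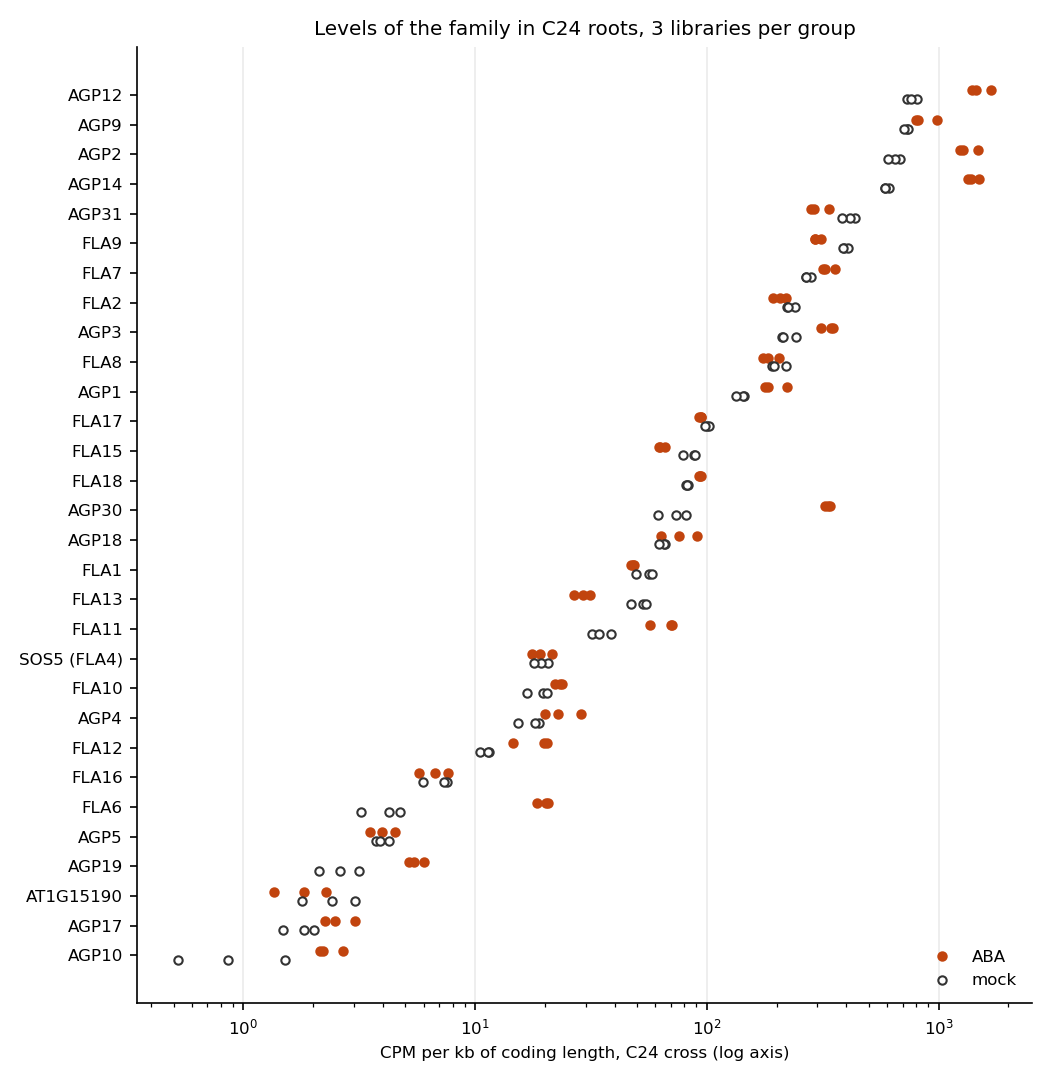
Level of each gene in CPM per kb of coding length (log axis), with 1 point per library, in C24 ABA (filled) and C24 mock (open). FLA5 and the 4 genes too low to be tested are not drawn; AGP12 has the highest mean in both groups, within the summed SDs of AGP9 in mock and of AGP14 and AGP2 in ABA libraries, and AGP30 and FLA6 show the widest gaps between ABA and mock libraries.

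Of the 35 genes, 31 passed the filter on low counts and were tested, 17 FLA and 14 AGP genes. FLA3 and FLA14, known as pollen genes, had no count in any of the 24 libraries, which allows up to 0.0489 to 0.0792 CPM in a library (3 counts, counting error only). FLA20 had 0 to 19 counts per library and FLA21 0 to 4. FLA5 had 6 to 60 counts in each ABA library against 0 to 15 in each mock library. It thus passed the filter through its ABA libraries, which favours a rise with ABA. It is left out of the counts and medians of ABA responses given here, and its level was 0.583 ± 0.0860 CPM in C24 ABA and 0.0660 ± 0.0595 CPM in C24 mock libraries. Exons of 7 of the genes overlap an annotated gene on the other strand, and the strand setting of the counting is not given in the sources used here. For FLA3 and FLA14 the overlapping gene averaged 5.35 and 73.2 CPM over all libraries, so the limit given for them covers only reads that the counting could assign to them. For FLA16, AGP4, AGP10 and AGP19 the overlapping gene was below 0.06 CPM. For FLA11 it was at 71.1 CPM in C24 ABA and 74.9 CPM in C24 mock libraries, so reads of the pair may not have been told apart.

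The ABA response in C24 shows what 1 µM ABA did in roots that carry the transgene without a driver. Among the AGP genes 10 of 14 were higher and 1 lower, and among the FLA genes other than FLA5 5 of 16 were higher and 3 lower. In all, 15 of 30 genes were higher and 4 lower at an adjusted p under 0.05 by edgeR's quasi-likelihood test, while 18.5% of all 21315 genes tested were called higher and 15.3% lower (33.8% in all). The median log2 change was 0.57 over the AGP genes and -0.08 over the FLA genes, beside -0.02 over all genes tested. The difference between the AGP and FLA counts was not tested.

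AGP30 (AT2G33790), known from root regeneration and ABA-delayed germination, had 240, 234 and 244 CPM in C24 ABA libraries, against 44.3, 58.6 and 52.8 CPM in C24 mock libraries. The groups did not overlap, and the change was 4.60-fold (log2 2.2 ± 0.15 SE, edgeR adjusted p = 4.06e-10). FLA6 (AT2G20520), a short FLA gene, had 13.7, 15.1 and 15.3 CPM in C24 ABA libraries, against 2.38, 3.15 and 3.51 CPM in C24 mock libraries. The lowest ABA library lay above every mock library, a 4.85-fold change (log2 2.28 ± 0.24 SE, edgeR adjusted p = 1.66e-07).

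The peptide gene AGP14, whose mutants are known for longer root hairs, had 274, 252 and 246 CPM in C24 ABA libraries, against 111, 108 and 107 CPM in C24 mock libraries. Its log2 change was 1.24 ± 0.09 (edgeR adjusted p = 8.17e-11), with all ABA libraries above all mock libraries. AGP2, a classical arabinogalactan protein gene, had 587, 504 and 488 CPM in C24 ABA libraries, against 269, 258 and 238 CPM in C24 mock libraries. It was higher in every ABA library, with a log2 change of 1.05 ± 0.08 (edgeR adjusted p = 8.98e-11). AGP12 had 309, 256 and 265 CPM in C24 ABA libraries, against 134, 148 and 139 CPM in C24 mock libraries. Its groups stood apart as well (log2 0.98 ± 0.11, edgeR adjusted p = 1.67e-07). AGP19, one of the lysine-rich AGP genes, had 4.48, 4.06 and 3.89 CPM in C24 ABA libraries, against 2.36, 1.59 and 1.94 CPM in C24 mock libraries. The change of this low gene was 1.08 ± 0.23 on the log2 scale (edgeR adjusted p = 0.000546), with no overlap.

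AGP9, among the highest per length, had 564, 471 and 461 CPM in C24 ABA libraries, against 422, 425 and 407 CPM in C24 mock libraries. All ABA libraries were higher, but the change was small (log2 0.25 ± 0.09, edgeR adjusted p = 0.0262). The call rested on single libraries: the adjusted p was 0.218 without C24 ABA library 1 and 0.082 without C24 mock library 3. The remaining rises, by log2 change, were AGP10 (1.28), FLA11 (0.92), FLA12 (0.71), AGP3 (0.59), AGP1 (0.46), FLA7 (0.29), AGP18 (0.25) and FLA18 (0.19). The AGP10 call was lost without C24 ABA library 3 (adjusted p = 0.0512) or without C24 mock library 1 (0.0796) or 2 (0.0553). That of AGP18 was lost when any C24 library other than ABA library 3 was left out (adjusted p = 0.0552 to 0.388). With only the C24 groups in the fit, the calls of AGP9 (adjusted p = 0.0667), AGP18 (0.131) and FLA18 (0.0724) were lost.

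The 4 genes that fell in C24 were FLA13, AGP31, FLA15 and FLA9. FLA13 (AT5G44130), a short FLA gene, had 21.8, 23.2 and 19.8 CPM in C24 ABA libraries, against 39.4, 40.5 and 35.1 CPM in C24 mock libraries. The groups were well apart (log2 -0.83 ± 0.09, edgeR adjusted p = 1.06e-07). AGP31 had 362, 304 and 313 CPM in C24 ABA libraries, against 472, 447 and 414 CPM in C24 mock libraries. No library of the ABA group reached the mock group (log2 -0.44 ± 0.09, edgeR adjusted p = 0.000246). FLA9 had 231, 217 and 219 CPM in C24 ABA libraries, against 291, 302 and 289 CPM in C24 mock libraries. The groups were again apart (log2 -0.40 ± 0.07, edgeR adjusted p = 7.21e-05). FLA15 (AT3G52370), one of the longer FLA genes, had 96.8, 91.6 and 92.6 CPM in C24 ABA libraries, against 115, 130 and 130 CPM in C24 mock libraries. Its fall was of the same order (log2 -0.42 ± 0.07, edgeR adjusted p = 4.86e-05), without overlap.

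The driver crosses were treated in the same way, and each response below is that cross's ABA libraries against its own mock libraries. In J0571, 14 of 30 genes were higher and 1 lower, while 14.3% of all genes tested were called higher and 9.81% lower (24.1% in all). In J1721, 11 were higher and 4 lower, beside 15.8% and 12.6% of all genes (28.4% in all). In Q0990, 11 were higher and 6 lower, beside 16.9% and 14% of all genes (31% in all). Over the 30 genes the median log2 change came to 0.39 (J0571), 0.14 (J1721), 0.12 (Q0990) and 0.27 (C24), and that of all genes was within 0.02 of 0 in every cross. In the response averaged over the 4 crosses, 18 genes were higher and 6 lower, where 27.5% of all genes were called in each direction (55% in all). AGP1, AGP2, AGP12, AGP14 and AGP30 were called higher in all 4 crosses, and FLA15 lower in all 4; for AGP1 the Q0990 call was lost without Q0990 ABA library 3 (adjusted p = 0.0565). No gene was called in opposite directions, and FLA1, SOS5, FLA16 and FLA17 were called in no cross. The share of all genes called in all 4 crosses, or in none, was not counted. Whether these members stand out by that measure is therefore not known.

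**Figure D2:**
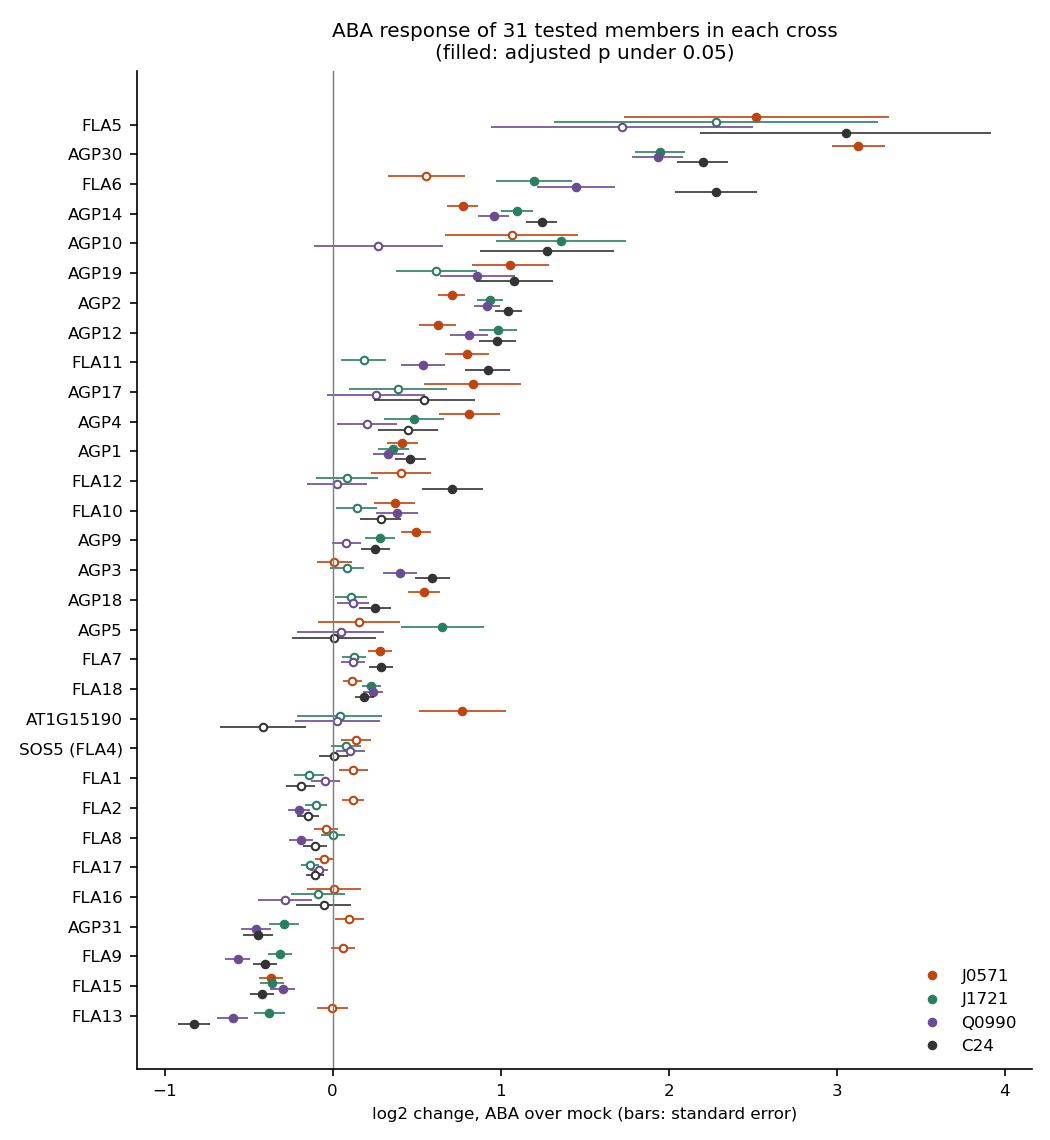
Log2 change, ABA over mock, of the 31 tested genes in each cross, with standard errors as bars and filled points at an adjusted p under 0.05. AGP30, AGP14, AGP2 and AGP12 lie right of 0 in all crosses, while FLA13, FLA9 and AGP31 lie left of 0 in J1721, Q0990 and C24 and near 0 in J0571.

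AGP14 showed the same direction in the driver crosses. It had 172, 204 and 188 CPM in J0571 ABA against 97.4, 121 and 111 CPM in J0571 mock libraries. In J1721 it had 210, 251 and 266 CPM with ABA against 114, 108 and 118 CPM in mock. The Q0990 libraries had 278, 274 and 248 CPM with ABA against 128, 127 and 157 CPM in mock. ABA and mock libraries did not overlap in any of these crosses, and the J0571 ABA libraries were the lowest of the ABA libraries. The log2 changes were 0.77 ± 0.09 in J0571, 1.10 ± 0.09 in J1721 and 0.96 ± 0.09 in Q0990 (edgeR adjusted p = 4.14e-07, 7.97e-10 and 7.94e-09 in that order). The response was not called different in J0571 against C24 (difference -0.47, 95% interval -0.73 to -0.21, edgeR adjusted p = 0.153), but DESeq2 called it (adjusted p = 0.0464).

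AGP2 had 408, 490 and 431 CPM in J0571 ABA against 271, 277 and 265 CPM in J0571 mock libraries. In J1721 it had 536, 483 and 559 CPM with ABA against 290, 270 and 265 CPM in mock. In Q0990 it had 524, 477 and 523 CPM with ABA against 266, 263 and 276 CPM in mock. Every ABA library was above every mock library, and the log2 changes were 0.71 ± 0.08, 0.94 ± 0.08 and 0.92 ± 0.08 in J0571, J1721 and Q0990 (largest edgeR adjusted p = 1.23e-07, in J0571). AGP12 had 207, 293 and 252 CPM in J0571 ABA against 151, 181 and 155 CPM in J0571 mock libraries. In J1721 it had 248, 282 and 314 CPM with ABA against 148, 140 and 139 CPM in mock. Q0990 libraries held 326, 292 and 290 CPM with ABA against 151, 173 and 194 CPM in mock. The groups of AGP12 did not overlap in any cross, with log2 changes of 0.63 ± 0.11, 0.99 ± 0.11 and 0.81 ± 0.11 in J0571, J1721 and Q0990.

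FLA15, the gene lower in every cross, had 110, 105 and 110 CPM in J0571 ABA against 141, 143 and 134 CPM in J0571 mock libraries. Its log2 changes were -0.37 in J0571, -0.36 in J1721 and -0.30 in Q0990, each with an SE of 0.07. The edgeR adjusted p lay between 0.000327 and 0.00222. AGP9 rose in J0571 to 530, 633 and 535 CPM, against 407, 392 and 405 CPM in mock (log2 0.50 ± 0.09, edgeR adjusted p = 9.67e-05). In Q0990 AGP9 had 448, 428 and 474 CPM with ABA against 414, 452 and 409 CPM in mock, groups that overlapped (log2 0.08 ± 0.09, edgeR adjusted p = 0.523). AGP19 had log2 changes of 1.06 ± 0.23 in J0571, 0.62 ± 0.24 in J1721 and 0.86 ± 0.23 in Q0990. It was called in J0571 (edgeR adjusted p = 0.000874) and in Q0990 (0.00424, or 0.0539 without Q0990 ABA library 2) but not in J1721 (0.0572).

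Further members passed the test in the driver crosses. In J0571 the further rises, as log2 changes, were AGP17 (0.83), AGP4 (0.81), AT1G15190 (0.77), AGP18 (0.54), FLA10 (0.37) and FLA7 (0.28). AGP4, known for blocking further pollen tubes after fertilization, and AGP18, known from megaspore selection, kept their J0571 calls with any 1 library left out. The J0571 call of AGP17 was lost without any library but ABA library 1. Such calls were lost without ABA library 2 or mock library 2 or 3 for AT1G15190, without ABA library 2 or 3 or mock library 1 or 2 for FLA10, and without ABA library 2 for FLA7 (adjusted p = 0.0591 to 0.222 over these 4 genes).

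In J1721 the further rises were AGP10 (1.36), AGP5 (0.65), AGP4 (0.49), AGP9 (0.28) and FLA18 (0.23). The J1721 calls were lost without any library but mock library 1 for AGP4, without ABA library 1 or 2 or mock library 1 or 2 for AGP5, and without ABA library 3 or mock library 2 or 3 for AGP9 (adjusted p = 0.0582 to 0.273). In Q0990 the further rises were AGP3 (0.40), FLA10 (0.38) and FLA18 (0.24), and FLA2 (-0.20) and FLA8 (-0.19) fell. The Q0990 calls were lost without ABA library 2 or 3 or mock library 1 for FLA10 and without ABA library 1 or 2 or mock library 1 for FLA2. For FLA8 the call was lost without any library but mock library 3 (adjusted p = 0.0625 to 0.122 over these 3 genes).

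**Figure D3:**
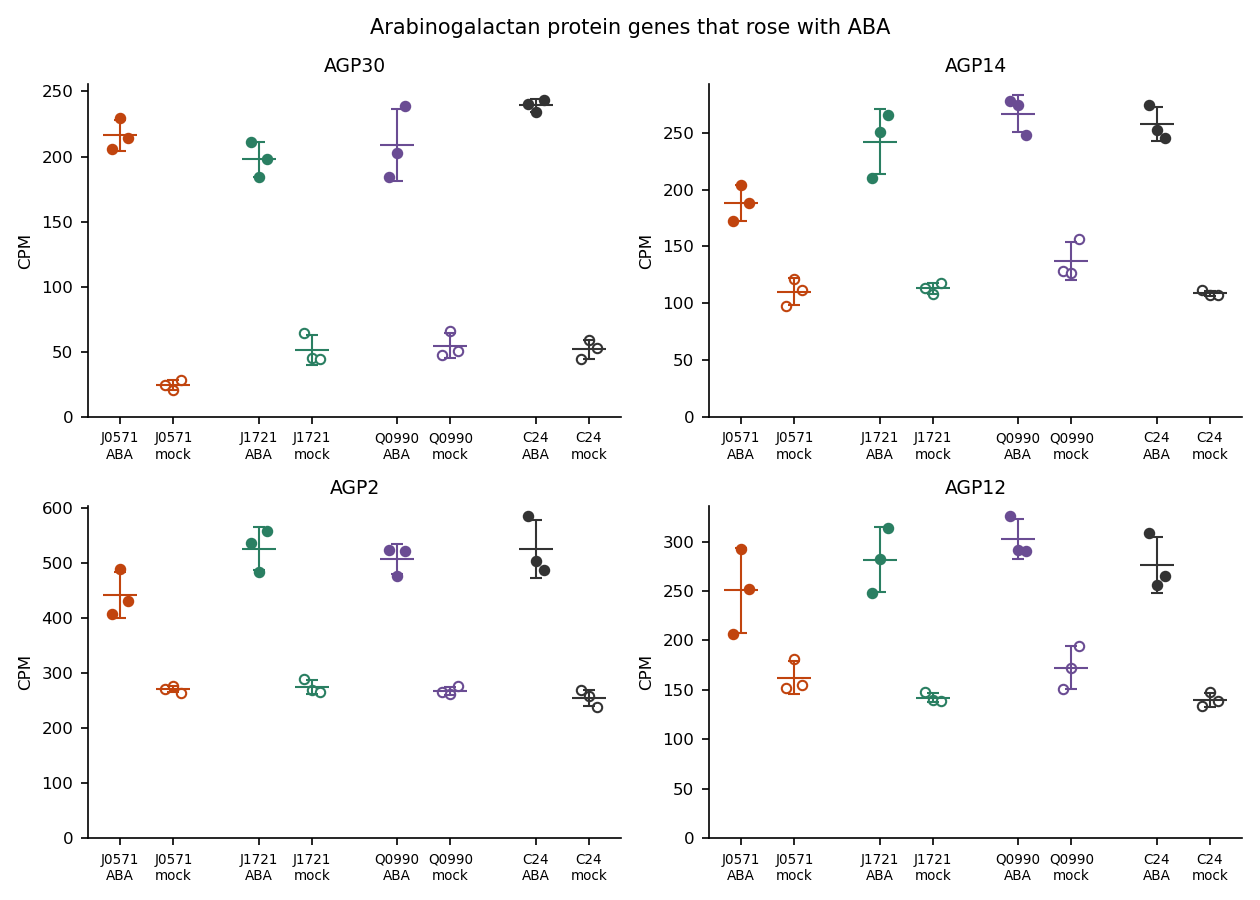
CPM of AGP30, AGP14, AGP2 and AGP12 in each library (points), with the group mean and SD as lines, for ABA (filled) and mock (open) in the 4 crosses. ABA libraries lie above mock libraries for each gene and cross, and the J0571 mock libraries of AGP30, at 20.8 to 28.6 CPM, lie below all other mock libraries.

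The mock libraries of each driver cross were set against those of C24 to ask whether the crosses differed without ABA. AGP30 was the only one of the 31 genes called in J0571, where 0.427% of all genes tested were called. It had 24.8, 20.8 and 28.6 CPM in J0571 mock libraries, against 44.3, 58.6 and 52.8 CPM in C24 mock libraries. The highest J0571 library lay below the lowest C24 library, and the level was 2.10-fold lower in J0571 (log2 -1.07 ± 0.15, edgeR adjusted p = 0.00117, with the call kept in all 13 alternatives). The mock libraries of J1721 (64.5, 45.0 and 44.4 CPM) and Q0990 (47.8, 65.7 and 50.2 CPM) overlapped those of C24, with intervals of the log2 difference of -0.31 to 0.27 and -0.22 to 0.36. FLA6 was at 5.53, 6.18 and 7.33 CPM in J0571 mock libraries against 2.38, 3.15 and 3.51 CPM in C24 mock libraries. The FLA6 groups did not overlap, but the difference missed the threshold in edgeR (log2 1.07 ± 0.25, adjusted p = 0.059) and passed it in DESeq2 (adjusted p = 0.00138). AGP3 was at 127, 127 and 123 CPM in J0571 mock libraries against 88.4, 102 and 89.8 CPM in C24 mock libraries, with edgeR adjusted p = 0.0628 and DESeq2 adjusted p = 0.0102.

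In the J1721 mock libraries edgeR called 0 of 31 genes (0.0516% of all genes), with 2 at an unadjusted p under 0.05 (5.32% of all genes). DESeq2 called 1 of the 31, FLA6, and 42 of the 21950 genes it tested. In Q0990 both tools called 0 of 31 (0.0516% of all genes in edgeR, 16 of 23468 in DESeq2), with 4 at an unadjusted p under 0.05 (5.15% of all genes). In J0571 mock libraries CASP5, an endodermal Casparian strip gene on the marker list, was also lower than in C24, at a mean of 4.67 CPM against 27.3 CPM. It was the 1 of 6 endodermal barrier markers called there. The other 5 had group means of 40.2 to 121 CPM in J0571 mock and 34.5 to 142 CPM in C24 mock libraries. Of these, CASP4 had the higher mean in J0571 (42.0 against 34.5 CPM) and the rest had the lower. With ABA the mean of CASP5 was 17.2 CPM in J0571 against 82.7 CPM in C24, unlike AGP30, whose ABA levels are given below. Whether these genes have a part in the AGP30 difference was not tested.

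With ABA, AGP30 had 206, 229 and 214 CPM in J0571 libraries and 211, 184 and 198 CPM in J1721 libraries. The ABA libraries of Q0990 held 184, 203 and 239 CPM, and those of C24 held 240, 234 and 244 CPM. The J0571 libraries overlapped those of J1721 and Q0990 and lay just below those of C24. The ABA response of AGP30 was 8.75-fold in J0571 (log2 3.13 ± 0.16), against log2 changes of 1.95 ± 0.15 in J1721, 1.94 ± 0.15 in Q0990 and 2.2 ± 0.15 in C24. The difference in response between J0571 and C24 was 0.93 on the log2 scale (95% interval 0.52 to 1.33). It missed the threshold in edgeR (adjusted p = 0.0552) and passed it in DESeq2 (adjusted p = 0.00138).

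The difference in ABA response between each driver cross and C24 was then tested as an interaction. Since the 3 comparisons share the C24 libraries, they are not independent of each other. In J0571, edgeR called 4 of 31 genes, 3 with a higher and 1 with a lower log2 change than in C24. It called 0.286% and 0.127% of all genes tested (0.413% in all), while DESeq2 called 7 of 31 and 186 of 21444. The 3 higher ones in edgeR were FLA13, FLA9 and AGP31, which fell in C24, and the lower one was FLA6, which rose in C24.

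FLA13 had 38.2, 39.5 and 36.9 CPM in J0571 ABA libraries, against 35.3, 38.6 and 40.9 CPM in J0571 mock libraries. The groups overlapped (95% interval of the log2 change -0.18 to 0.18), while in C24 all ABA libraries were far below mock. In J1721 it had 28.2, 30.3 and 30.6 CPM with ABA against 37.8, 37.4 and 40.2 CPM in mock. The Q0990 cross had 26.9, 29.2 and 21.1 CPM with ABA against 39.9, 35.6 and 41.2 CPM in mock. The gene thus fell without overlap in J1721 (log2 -0.38 ± 0.09, edgeR adjusted p = 0.00278) and Q0990 (log2 -0.60 ± 0.09, edgeR adjusted p = 1.51e-05). The J0571 and C24 responses differed by 0.82 ± 0.13 on the log2 scale (edgeR adjusted p = 0.00117). The call held in all 19 alternatives (largest adjusted p = 0.0268).

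FLA9 had 304, 347 and 301 CPM in J0571 ABA libraries, against 288, 303 and 322 CPM in J0571 mock libraries. The groups overlapped (log2 0.06, 95% interval -0.08 to 0.20). In J1721 FLA9 had 249, 215 and 248 CPM with ABA against 324, 283 and 279 CPM in mock. In Q0990 it had 208, 212 and 216 CPM with ABA against 310, 319 and 313 CPM in mock. Both were falls without overlap (log2 -0.31 and -0.57, each ± 0.07, edgeR adjusted p = 0.0013 and 6.53e-07). The J0571 and C24 responses differed by 0.46 ± 0.10 (edgeR adjusted p = 0.0316). That call was lost in 11 of 19 alternatives, among them the removal of 1 library out of C24 ABA 2 or 3, any C24 mock library, J0571 ABA 2, or J0571 mock 1 or 2 (highest adjusted p = 0.177, without J0571 mock library 1).

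AGP31 had 404, 466 and 466 CPM in J0571 ABA libraries, against 429, 379 and 439 CPM in J0571 mock libraries. The groups overlapped (log2 0.10, 95% interval -0.07 to 0.27). In J1721 AGP31 had 346, 358 and 339 CPM with ABA against 473, 376 and 425 CPM in mock. In Q0990 it had 291, 313 and 331 CPM with ABA against 431, 453 and 399 CPM in mock. The falls were -0.29 ± 0.09 in J1721 (edgeR adjusted p = 0.0141, or 0.0525 without ABA library 3 and 0.115 without mock library 1) and -0.46 ± 0.09 in Q0990 (edgeR adjusted p = 0.000209), without overlap. The J0571 and C24 responses differed by 0.54 ± 0.12 (edgeR adjusted p = 0.0448). This was the least stable of the 4 calls and was lost in 14 of 19 alternatives, 8 of which left out 1 library: C24 ABA 2 or 3, C24 mock 1 or 2, J0571 ABA 2 or 3, or J0571 mock 1 or 2 (highest adjusted p = 0.226, without J0571 mock library 2). In mock libraries FLA13, FLA9 and AGP31 each overlapped between J0571 and C24. The 95% interval of the log2 difference was -0.18 to 0.18 for FLA13, -0.09 to 0.19 for FLA9 and -0.27 to 0.07 for AGP31.

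FLA6 had 9.01, 10 and 9.07 CPM in J0571 ABA libraries, against 5.53, 6.18 and 7.33 CPM in J0571 mock libraries. The groups did not overlap, but the change was not called (log2 0.56 ± 0.23, edgeR adjusted p = 0.0843). FLA6 had 17.3, 14.0 and 10.8 CPM in J1721 ABA libraries, against 5.04, 6.93 and 6.41 CPM in mock. In Q0990 it had 14.1, 16.2 and 9.43 CPM with ABA against 2.96, 4.99 and 6.66 CPM in mock. These rises were called, at 1.20 ± 0.23 in J1721 (edgeR adjusted p = 0.00032) and 1.45 ± 0.23 in Q0990 (edgeR adjusted p = 4.64e-05). Between J0571 and C24 the response of FLA6 differed by -1.72 ± 0.33 (edgeR adjusted p = 0.0151), with both the higher J0571 mock level and the lower J0571 ABA level entering the difference. The adjusted p was 0.0674 without C24 mock library 1 and 0.051 without J0571 ABA library 3.

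**Figure D4:**
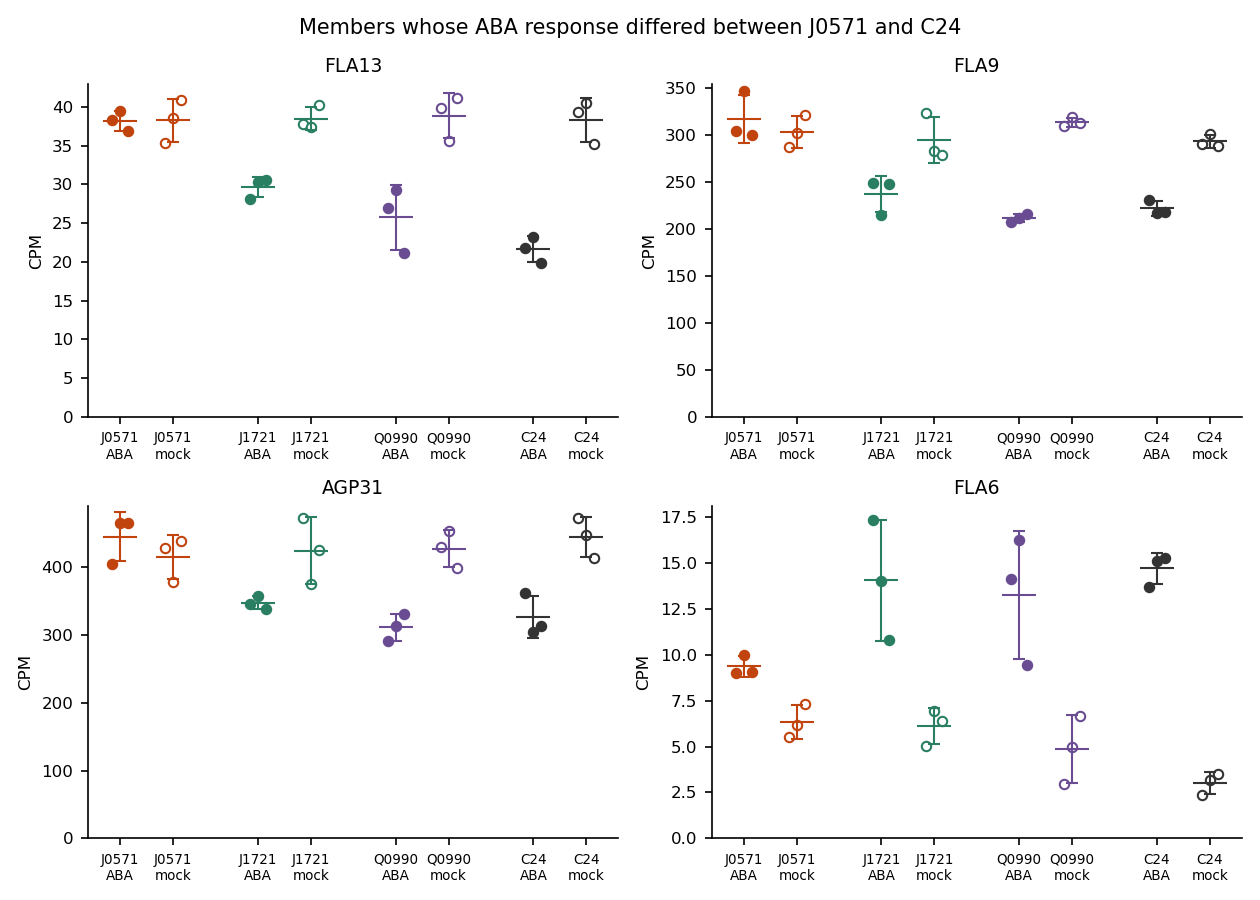
CPM of FLA13, FLA9, AGP31 and FLA6 in each library (points), with group means and SDs as lines, for ABA (filled) and mock (open). ABA and mock libraries of J0571 overlap for FLA13, FLA9 and AGP31, while ABA libraries lie below mock libraries in J1721, Q0990 and C24; for FLA6 the C24 groups, at 13.7 to 15.3 and 2.38 to 3.51 CPM, lie farthest apart.

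Root hair markers were summed in the same libraries. The summed level of 6 root hair genes was 464 to 490 CPM in J0571 ABA against 440 to 465 CPM in J0571 mock libraries, and 526 to 561 CPM in C24 ABA against 344 to 410 CPM in C24 mock libraries. None of the 6 was called in the J0571 ABA response and 5 were called higher in that of C24. In J1721 the sum was 462 to 610 CPM with ABA against 410 to 487 CPM in mock, and 3 of the 6 were called higher. In Q0990 it was 523 to 570 CPM with ABA against 356 to 453 CPM in mock, and 5 were called higher. EXPA18, a root hair expansin, was the 1 of 6 called in the difference between J0571 and C24 (log2 -0.59, edgeR adjusted p = 0.0456). None was at 0, and the lowest group mean was 14.0 CPM, for RSL4 in C24 mock libraries. The part of root hair cells in the FLA6 result was not tested.

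Against C24, J1721 had 0 of 31 genes called different in ABA response (0.164% of all genes), with 5 at an unadjusted p under 0.05 (4.54% of all genes). DESeq2 called 63 of the 22456 genes it tested, among them 1 of the 31. That gene was FLA11 (AT5G03170), which together with FLA12 is known from secondary cell walls of the stem. FLA11 had 24, 25 and 24.5 CPM in J1721 ABA libraries, against 20.0, 22.3 and 22.3 CPM in J1721 mock libraries. The J1721 ABA libraries lay close above their mock libraries. It rose in J0571 to 51.9, 58.6 and 42.8 CPM with ABA, against 28.5, 29.5 and 30.1 CPM in mock. In Q0990 it rose to 40.2, 53.6 and 37.1 CPM with ABA, against 27.8, 26.2 and 36.1 CPM in mock. The C24 libraries had 52.1, 52.5 and 42.2 CPM with ABA against 23.7, 28.5 and 25.3 CPM in mock. In these 3 crosses the ABA libraries did not overlap the mock libraries. The log2 changes were 0.80 ± 0.13 in J0571, 0.19 ± 0.13 in J1721, 0.54 ± 0.13 in Q0990 and 0.92 ± 0.13 in C24, the J1721 one not called (edgeR adjusted p = 0.341) and the Q0990 one lost with only the groups compared (0.0533). The difference between J1721 and C24 was -0.74 ± 0.19 (95% interval -1.11 to -0.37), with an adjusted p of 0.216 in edgeR and 0.0458 in DESeq2. The J0571 and J1721 responses differed by 0.61 (95% interval 0.25 to 0.98, edgeR adjusted p = 0.297).

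FLA12 had log2 changes of 0.41 ± 0.18 in J0571, 0.08 ± 0.19 in J1721, 0.03 ± 0.18 in Q0990 and 0.71 ± 0.18 in C24, of which the C24 one was called (edgeR adjusted p = 0.00388). The xylem secondary wall markers, 7 genes of cellulose synthesis, xylan synthesis, vessel proteases and a regulator, were summed beside them. Their summed level was 361 to 399 CPM in J1721 ABA against 298 to 345 CPM in J1721 mock libraries. In J0571 the sum was 574 to 637 CPM with ABA against 392 to 397 CPM in mock, and in Q0990 563 to 696 CPM against 361 to 433 CPM. In C24 it was 620 to 719 CPM with ABA against 359 to 387 CPM in mock. All 7 were called higher in J0571, Q0990 and C24 and 2 of 7 in J1721, and CESA4, CESA7, CESA8, IRX9 and MYB46 were called lower in the difference between J1721 and C24. None of the 7 was at 0. Their part in the FLA11 values was not tested.

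**Figure D5:**
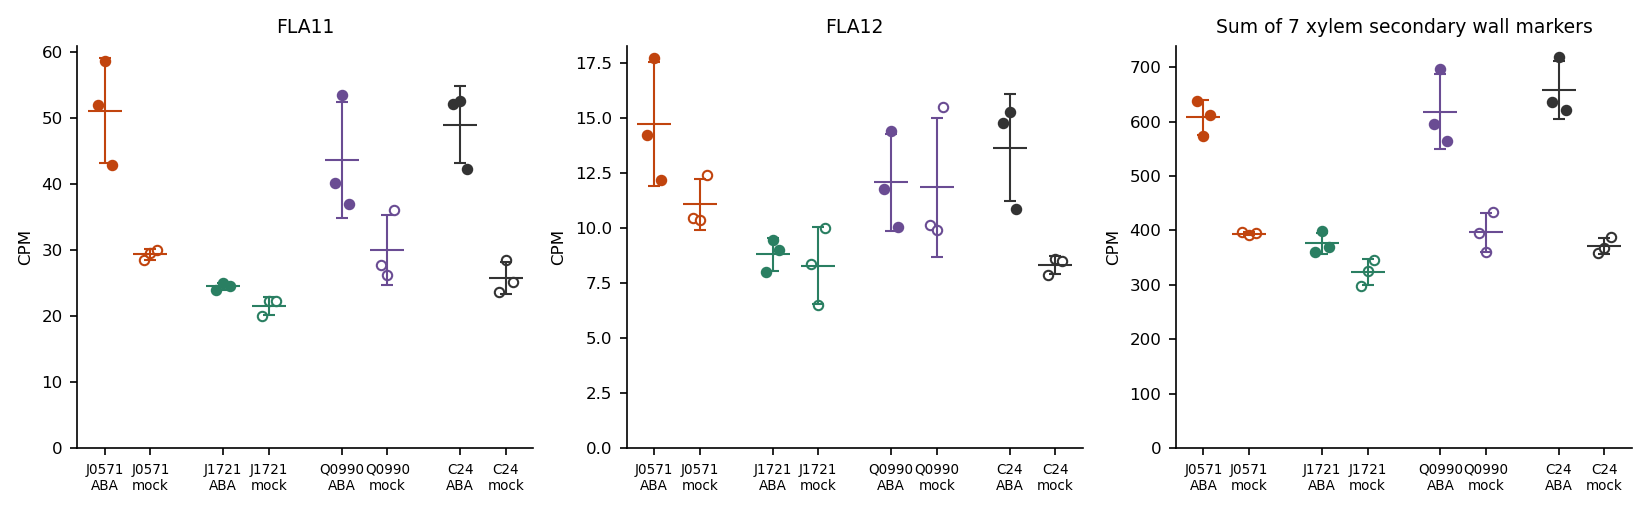
CPM of FLA11 and FLA12 and the summed CPM of 7 xylem secondary wall marker genes in each library (points), with group means and SDs, for ABA (filled) and mock (open). In all 3 panels the J1721 ABA libraries lie below the C24 ABA libraries and near or among the J1721 mock libraries.

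Against C24, Q0990 had 0 of 31 genes called different in ABA response by edgeR and by DESeq2. Over all genes edgeR called 0% and DESeq2 3 of 26504. An unadjusted p under 0.05 was reached by 4 of the 31 and by 4.3% of all genes. For FLA6 the log2 difference was -0.83 (95% interval -1.49 to -0.18) and for FLA11 -0.39 (-0.75 to -0.02), and for FLA9 it was -0.16 (-0.36 to 0.03).

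The driver crosses were also compared with each other, a choice made after the values against C24 were seen. Between J0571 and J1721 the response of 1 gene differed (0.319% of all genes), AGP30, by 1.18 on the log2 scale (edgeR adjusted p = 0.0096). That call was lost without J0571 ABA library 2 (adjusted p = 0.0574) or J0571 mock library 2 (0.0507). FLA13, FLA9, AGP31 and FLA6 were not called in this comparison, so their responses in J0571 and J1721 were not shown to differ. Between J0571 and Q0990 4 genes differed (0.38% of all genes): AGP30 by 1.19 (edgeR adjusted p = 0.00726), FLA9 by 0.63 (0.00147), AGP31 by 0.56 (0.0383) and FLA13 by 0.59 (0.0368). The AGP30 and FLA9 calls held in all 19 alternatives, and those of AGP31 and FLA13 were each lost in 12 of 19. The AGP31 call was lost without J0571 ABA library 2 or 3, J0571 mock library 1 or 2, Q0990 ABA library 1 or 2, or Q0990 mock library 1 or 2. The FLA13 call was lost without any J0571 ABA library, J0571 mock library 1 or 2, Q0990 ABA library 1 or 3, or Q0990 mock library 1 or 3. Between J1721 and Q0990 edgeR and DESeq2 called 0 of 31, where edgeR called 0% of all genes and DESeq2 12 of 23974. At an unadjusted p under 0.05 were 2 of the 31 and 3.62% of all genes.

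Other genes of the same pathway were counted from lists of 43 symbols, of which 10 gave no single locus in the reference and were dropped. Of 13 further arabinogalactan protein genes tested, 8 were higher and 2 lower in C24 ABA libraries than in C24 mock libraries, beside 18.5% higher and 15.3% lower among all genes tested. AGP24 (log2 0.81), AGP25 (0.68) and AGP41 (0.61) had the largest rises, and AGP6, a pollen gene, and AGP16 were lower (-1.63 and -0.25). Of 12 genes of prolyl hydroxylation and arabinogalactan glycosylation tested, 2 were higher and 2 lower, a share close to the 33.8% called among all genes. GALT31A (0.55) and GALT2 (0.23), both galactosyltransferase genes, were higher, while FUT6 (-0.28), a fucosyltransferase gene, and P4H2 (-0.21), a prolyl hydroxylase gene, were lower. Of 5 genes of the SOS5 pathway and of GPI anchor assembly, 0 were higher and 2 lower (15.3% of all genes were lower), the receptor-like kinase genes FEI1 (-0.27) and FEI2 (-0.23), which act with SOS5. SOS5 itself had 24.5 ± 2.47 CPM in C24 ABA and 24.4 ± 1.77 CPM in C24 mock libraries (log2 0.01, edgeR adjusted p = 0.972). AGP24 was also the 1 of these 30 genes called in the mock comparison of J0571 with C24 (log2 0.47, edgeR adjusted p = 0.032).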

How the data were processed

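RNA from roots of 24 pools of seedlings (8 groups of 3) was sequenced as paired reads of 150 bases from NEBNext Ultra libraries, per the labels' protocols. The authors deposited 1 table of raw counts of reads per gene; HISAT2 and HTSeq are named per the submitters' processing notes. Tool versions, build, gene annotation and strandedness of counting were not given in the sources used here. All columns belonged to the 24 libraries.

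Tests used edgeR 4.0.16 with limma 3.58.1 under R 4.3.3: TMM normalization, the filterByExpr filter (21315 genes kept), 1 robust quasi-likelihood fit with 8 group means, and Benjamini-Hochberg adjustment over all genes tested in a comparison, calling at an adjusted p under 0.05. No test was made over the list. The fit was tested on simulated counts with known changes. CPM use normalized library sizes; levels between genes are per kb of coding length. DESeq2 1.42.0 was an alternative. Other alternatives changed the scaling, the low-count filter, the robust option, the replicate block and the libraries used.

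Symbols, coding lengths and sequences came from RefSeq's TAIR10.1, in which 32548 of 34218 features matched a locus. Upstream windows were cut from the RefSeq annotation, not from the deposited table, which holds no coordinates.

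The genes and lists were chosen with earlier results of these data known. Values in every library are given for members called in a difference from C24, for the 5 largest changes in each direction in C24 among members called at a mean of at least 1 CPM, and for the 5 highest levels in C24 mock; only 4 falls were called. FLA11, and AGP3 in mock libraries, were added after their values were seen. Replicates differed by more than counting noise (chi-square over its degrees of freedom 6.79 to 34.8), and none was treated as a duplicate. Intervals are at 95%, from the SE and a normal distribution. Unlike the adjusted p, they are not adjusted over the genes tested.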

Additional observations from a re-analysis of the deposited data

Results flagged for a closer look

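The ABA response of 5 genes differed between crosses by the interaction test, edgeR's quasi-likelihood test adjusted over all genes. Between J0571 and C24 the log2 changes differed by 0.8227 for FLA13, 0.4648 for FLA9, 0.5448 for AGP31 and -1.7205 for FLA6. Between J0571 and J1721 the difference was 1.1806 for AGP30. Between J0571 and Q0990 it was 1.1936 for AGP30, 0.6285 for FLA9, 0.5923 for FLA13 and 0.5558 for AGP31. A positive value means a higher log2 change in J0571. All 9 differences involve the J0571 libraries, so they share those samples. For AGP30 the J0571 ABA libraries (206 to 229 CPM) overlapped those of J1721 and Q0990, and the J0571 mock libraries (20.8 to 28.6 CPM) did not overlap those of any other cross. No outlier test within a group was run, since each held 3 libraries; the fits that leave out single libraries are given with each difference.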

How the results depend on the processing

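No called gene changed direction in any alternative. Leaving out 1 library gave 1122 values, of which 99 lost the call; the other alternatives gave 696, of which 41 did. The cause was not tested. Of the 31 genes, 4 were called in the difference between J0571 and C24. That count was 2 with the replicate number as a block, 7 with DESeq2 and 2 to 5 with 1 library left out. Over all genes the block fit called 54 higher and 19 lower, and DESeq2 186 in all. With 1 library left out, 44 to 64 of all genes were higher and 13 to 28 lower. For J1721 against C24 the count among the 31 was 0, and 1 with DESeq2 (63 of all genes). For the J0571 mock comparison it was 1, but 3 with DESeq2 (260 of all genes). With no low-count filter it was 2 (62 higher and 30 lower over all genes). It was 2 with robust shrinkage off (69 and 32) and 3 with only the groups compared (63 and 12). For the J1721 mock comparison it was 0, and 1 with DESeq2 (42 of all genes). Between J0571 and J1721 it was 1, and 0 to 1 with 1 library left out. Those fits called 25 to 45 of all genes higher and 15 to 28 lower. Between J0571 and Q0990 the count among the 31 was 4, but 2 with no low-count filter (50 higher and 31 lower over all genes). It was 2 without the 4 mock libraries numbered 1 (30 and 6) and 2 with only the groups compared (48 and 27). With 1 library left out it was 2 to 4 (36 to 62 and 10 to 42). With 1 library left out, the ABA response counts were 12 to 16 in J0571, 12 to 16 in J1721, 13 to 17 in Q0990 and 18 to 20 in C24, FLA5 included where called. Over all genes these fits called 2327 to 2947 higher and 1621 to 2079 lower in J0571, and 2871 to 3125 and 2141 to 2453 in J1721. In Q0990 they called 3086 to 3248 and 2366 to 2642, and in C24 3476 to 3961 and 2641 to 2928.

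The replicate numbers did not pair the libraries: over 84 pairs of same-numbered libraries the deviations correlated between -0.237 and 0.197 (median 0.003), 7 pairs above 0.1, and 9 of 24 libraries were closest to their own number. Both extremes were between mock libraries numbered 1, the lowest for C24 with J1721 and the highest for C24 with Q0990. DESeq2's size factors moved the median of all genes by at most 0.021 on the log2 scale. Genes below about 2 CPM (AGP5, AGP10, AGP17, AT1G15190 and FLA5) have the widest errors, and the depth limits what can be said of them.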
